A study of Rattus norvegicus with 24 samples.

Results

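The miRNA content of the PVN was compared with that of the CEA in rats that had no surgery. The comparison held the 6 libraries labelled as normal control (NC), 3 from the PVN (PVN_NC1 to PVN_NC3) and 3 from the CEA (CEA_NC1 to CEA_NC3), of 24 small RNA libraries in the whole series. The 6 libraries were taken by their labels. The other 18 libraries came from the same 2 nuclei of rats with partial hepatectomy alone (HT), with hepatectomy and electroacupuncture (HT+EA) and with hepatectomy and sham electroacupuncture (SEA), 3 libraries for each nucleus and treatment. All rats were male Sprague-Dawley animals, 7 weeks old at purchase. NC rats were not operated on or needled but were held in restraint for as long as the rats that were. The study expands PVN as the periventricular nucleus and CEA as the central nucleus of the amygdala, and the labels name the tissue only as brain. According to its methods the brain samples were of the same batch but not of the same animal, and nothing says which library holds tissue of which rat. The rats were fewer than the libraries, so PVN_NC and CEA_NC are not shown to come from separate rats, and the p-values measure only the spread between these libraries, which may be technical.

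A miRNA is a short RNA that is cut from a hairpin precursor and pairs with messenger RNAs, mainly through its seed, the bases near its 5′ end, to lower their output. miRNAs with the same seed form a family with overlapping targets, and both arms of a hairpin, named 5p and 3p, can give a mature miRNA. The PVN is a nucleus of the hypothalamus and drives the hypothalamic-pituitary-adrenal axis, while the CEA is an output nucleus of the amygdala, which takes part in fear and stress responses. In the hypothalamus, miR-7 is known as an abundant miRNA of neuroendocrine cells, and miR-124, miR-9, miR-128 and miR-138 are known as miRNAs of neurons in most of the brain.

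The mature sequences of some of the miRNAs described in the results are shown so that shared seeds, and members of a seed that went opposite ways, can be seen. They come from RefSeq, 5′ to 3′, with the seed (bases 2 to 8) in capitals, with miRNAs of the same seed next to each other. Those up to miR-181d-5p were higher in the PVN except miR-34a-5p, and the others were higher in the CEA.
miR-7a-5p: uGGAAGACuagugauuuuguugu
miR-7b: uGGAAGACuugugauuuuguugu
miR-653-5p: uUGAAACAuucucuacugaac
miR-489-3p: aUGACAUCacauauauggcagc
miR-135a-5p: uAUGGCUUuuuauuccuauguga
miR-135b-5p: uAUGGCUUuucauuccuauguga
miR-34c-5p: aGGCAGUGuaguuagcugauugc
miR-34a-5p: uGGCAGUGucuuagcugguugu
miR-298-5p: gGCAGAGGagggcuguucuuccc
miR-375-3p: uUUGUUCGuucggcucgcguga
miR-181d-5p: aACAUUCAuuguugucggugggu
miR-181a-5p: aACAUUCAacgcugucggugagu
miR-181b-5p: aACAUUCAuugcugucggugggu
miR-139-5p: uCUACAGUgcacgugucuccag
miR-221-3p: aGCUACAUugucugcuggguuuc
miR-222-3p: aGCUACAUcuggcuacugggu
miR-128-3p: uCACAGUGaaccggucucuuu
miR-138-5p: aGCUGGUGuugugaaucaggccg

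In the GRCr8 assembly, miR-7a-5p lay at chr17:6278710-6278732 on the plus strand, within the span of Hnrnpk, and again in a hairpin at chr1:142215818-142215840, while miR-7b lay at chr9:1167464-1167486. miR-7a-5p and miR-7b differed by the single substitution A10U, with positions counted from 1 at the 5′ end and the base of the miRNA named first given first. miR-653-5p lay at chr4:32647455-32647475 and miR-489-3p at chr4:32648063-32648084, both on the minus strand within the span of Calcr, the calcitonin receptor gene. miR-139-5p lay at chr1:165290865-165290886 within the span of Pde2a, a cyclic nucleotide phosphodiesterase gene. miR-222-3p and miR-221-3p lay on the X chromosome at chrX:6022682-6022702 and chrX:6023246-6023268, on the plus strand and outside any listed gene. miR-34c-5p lay at chr8:60306133-60306155, and miR-298-5p at chr3:183470571-183470593. The gene table used here gives spans only, so exons and introns were not told apart.

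Each library held between 6584345 and 13614860 counts, and 3 counts were worth between 0.22 and 0.456 CPM (the counts of a miRNA divided by the library total and multiplied by 1000000). Of 1098 miRNAs in the table (703 known and 395 predicted), 1015 had a read in at least 1 of the 6 libraries and 524 passed the filter on low counts. The log2 levels of libraries of the same nucleus correlated with a mean r per library of 0.987 to 0.99, against 0.954 to 0.961 between the nuclei. The miRNAs known from neurons were present in all 6 libraries, with miR-9a-5p at 97336 CPM or more. Library CEA_NC1 held more of several miRNAs higher in the PVN than the other CEA_NC libraries did. The 4 miRNAs of the Calcr span summed to 104 CPM in it, against 14.8 and 20.2 CPM in the others. The 4 miRNAs of the miR-7 hairpins summed to 46919 CPM, against 24865 and 31874 CPM. It was also the highest CEA library for miR-135a-5p, miR-298-5p, miR-134-5p, miR-770-3p and miR-127-3p. For miR-34c-5p, miR-375-3p and miR-217-5p the highest CEA library was CEA_NC2. Of the miRNAs higher in the CEA, miR-128-3p, miR-181a-5p, miR-219a-2-3p and miR-21-5p were lowest in CEA_NC1, but miR-139-5p was highest in it. The mean r of CEA_NC1 with the PVN libraries was 0.961, against 0.957 for CEA_NC2 and 0.954 for CEA_NC3. The part of CEA_NC1 in each difference was not tested beyond the values without that library, given beside some of them. In 33 pairs (66 miRNAs) the counts of the members were identical or within 15% of each other and the sequences shared at least 12 bases (or, in 1 pair without both sequences, the counts were within 1%). In 30 of them the sequences are reverse complements, and such reverse-complement pairs are not separate measurements.

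The nuclei differed in the level of many miRNAs. By the quasi-likelihood test of edgeR, with p-values adjusted after Benjamini and Hochberg, 256 of the 524 miRNAs tested (48.9%) passed an adjusted p of 0.05, 131 of them higher in the PVN (25.0%) and 125 higher in the CEA (23.9%). The counts of called members in each list are to be read against these shares. At an unadjusted p under 0.05 there were 290 (55.3%). Called differences of at least 2-fold numbered 118 (22.5%), with 73 higher in the PVN (13.9%) and 45 higher in the CEA (8.59%). All 3 PVN libraries lay above all 3 CEA libraries for 162 miRNAs (30.9%) and below them for 149 (28.4%), and of the 256 called miRNAs only miR-322-3p and miR-340-5p had overlapping libraries. The log2 fold change, PVN minus CEA, ran from -3.36 to 4.36 with a median of 0.03 over all miRNAs tested. Without 1 library at a time the number called was 191 to 256, and 169 miRNAs (81 higher in the PVN, 88 in the CEA) passed the threshold under every one of the 6 omissions, with 0 changes of sign. In bulk tissue, fewer cells of a type and less of a miRNA per cell cannot be told apart.

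**Figure D1:**
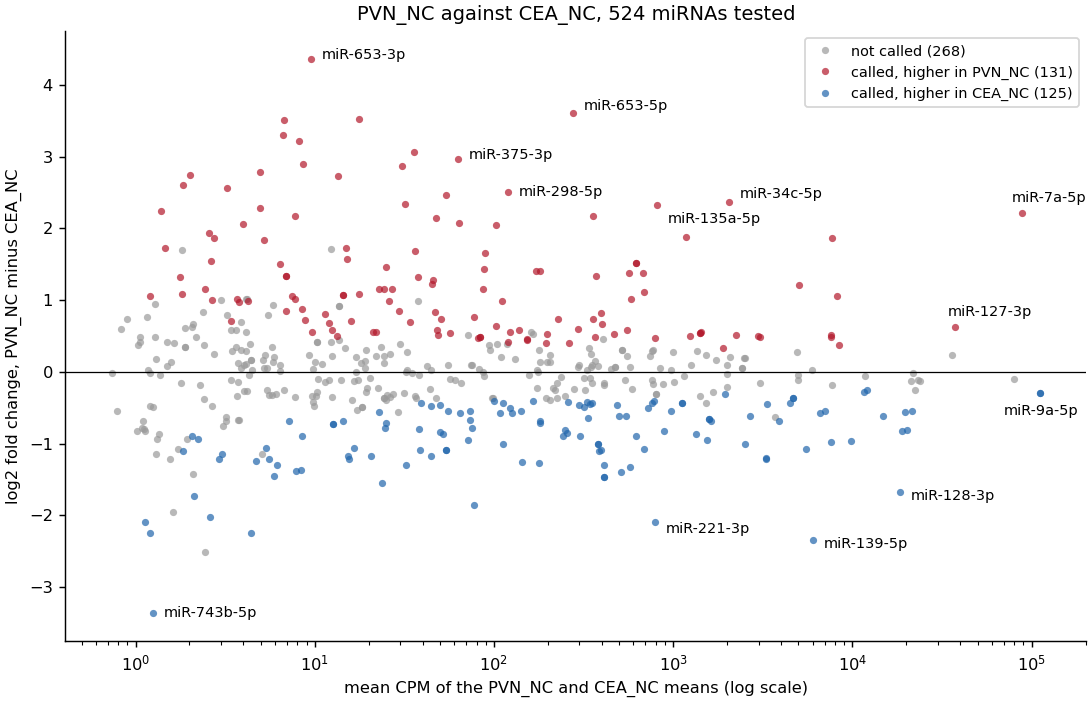
Log2 fold change of each of the 524 miRNAs tested (PVN_NC minus CEA_NC, y axis) against its mean level (CPM, log x axis), with called miRNAs coloured by the nucleus in which they were higher. The 131 miRNAs higher in the PVN reach a log2 fold change of 4.36 and include miR-7a-5p among the most abundant, while the 125 higher in the CEA reach -3.36 at low counts and -2.35 for the abundant miR-139-5p.

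The largest difference in absolute amount was that of the miR-7 family. miR-7a-5p stood at 156781, 139684 and 141569 CPM in the 3 PVN libraries and at 42471, 21968 and 29146 CPM in the 3 CEA libraries. It was the most abundant miRNA in every PVN library, with 14.0% to 15.7% of all counts, whereas miR-9a-5p led every CEA library and miR-7a-5p held 2.2% to 4.25% of the counts there. The means were 146011 ± 9374 and 31195 ± 10404 CPM (SD, n = 3 each), a 4.62-fold difference (log2 fold change 2.21 ± 0.25 (SE), edgeR adjusted p = 0.000697).

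miR-7b, which shares the seed and differs by 1 base, stood at 13711, 11723 and 10909.9 CPM in the PVN and at 4386, 2837 and 2656 CPM in the CEA, and was 3.64-fold higher in the PVN (edgeR adjusted p = 0.000706). miR-7a-2-3p, the partner arm from the chromosome 1 hairpin, was 2.22-fold higher in the PVN at 37.4 ± 2.77 against 16.7 ± 5.36 CPM (SD, n = 3 each). miR-7a-1-3p, the partner arm from the hairpin in Hnrnpk, went the other way. It stood at 22.9, 32.3 and 28.4 CPM in the PVN and at 40.6, 49.1 and 54.7 CPM in the CEA, with no overlap, and was 1.73-fold lower in the PVN (log2 fold change -0.79 ± 0.18 (SE), edgeR adjusted p = 0.0063). Without any 1 library its log2 fold change stayed between -0.92 and -0.69. Over both arms of the miR-7 hairpins, whose 3p arms have other seeds, all 4 miRNAs tested thus differed, 3 higher in the PVN and 1 higher in the CEA, with a median log2 fold change of 1.51 against 0.03 over all miRNAs. Here and for the other lists named by a family, both arms of the hairpins are counted, whatever their seed.

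Among miRNAs with a mean of at least 20 CPM in the higher nucleus, the largest fold changes were those of hairpins within Calcr. miR-653-5p stood at 587, 519.7 and 417 CPM in the PVN and at 93.1, 13 and 18.1 CPM in the CEA, so the libraries did not overlap and CEA_NC1 stood above the other CEA libraries. The difference was 12.1-fold (log2 fold change 3.60 ± 0.88 (SE), edgeR adjusted p = 0.0238), and 32.6-fold without CEA_NC1 (log2 fold change 5.03). Without CEA_NC3 or without PVN_NC1 the adjusted p was 0.0539 or 0.0793, with log2 fold changes of 3.23 and 3.47. miR-489-5p stood at 34.2, 30.6 and 32.3 CPM in the PVN and at 6.76, 0.588 and 1.31 CPM in the CEA, an 11.5-fold difference (edgeR adjusted p = 0.0134) that was 34.7-fold without CEA_NC1 and had an adjusted p of 0.0591 without PVN_NC1. The partner arms miR-653-3p and miR-489-3p were higher in the PVN with log2 fold changes of 4.36 and 3.51 (without CEA_NC1, 4.98 and 4.85), and miR-489-3p was 7.58-fold higher without CEA_NC2. All 4 miRNAs of this host gene were thus higher in the PVN, with a median log2 fold change of 3.56.

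A pair of miRNAs listed under Gabre, which encodes an epsilon subunit of the GABA-A receptor, followed the same direction. The hairpin of miR-224 lay within the span of Gabre, while no position was found for that of miR-452, which was placed there by the list alone. miR-224-5p stood at 14.4, 10.9 and 11.1 CPM in the PVN and at 1.16, 1.25 and 1.21 CPM in the CEA (9.85-fold, edgeR adjusted p = 2.7e-05). miR-452-5p stood at 16.1, 14.2 and 13.8 CPM against 3.28, 1.03 and 0.56 CPM (9.23-fold, edgeR adjusted p = 0.0022, and 17.9-fold without CEA_NC1). The libraries of the nuclei were well apart for both, at levels that were among the lower ones tested.

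From the imprinted Gnas locus, all 3 miRNAs tested were higher in the PVN, with a median log2 fold change of 2.28. miR-298-5p stood at 218, 203 and 191 CPM in the PVN and at 53.5, 31.7 and 21.6 CPM in the CEA (5.67-fold, edgeR adjusted p = 0.000951). Its partner arm miR-298-3p and the neighbouring miR-296-3p had log2 fold changes of 1.57 and 2.28. In the miR-135 family, all 4 arms tested were also higher in the PVN. miR-135a-5p stood at 1282, 1290.4 and 1515 CPM in the PVN and at 346, 222 and 235 CPM in the CEA (5.04-fold, log2 fold change 2.33 ± 0.20 (SE), edgeR adjusted p = 0.000109). miR-135b-5p, which differs from it by U11C and has the same seed, was 2.52-fold higher at 533 ± 24.5 against 209 ± 49.1 CPM (SD, n = 3 each).

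Of the lists of miRNAs known from other cell types, those of ciliated cells and of the pituitary and epithelia were the ones with most members higher in the PVN. miR-34b and miR-34c are transcribed together and are known from ciliated cells such as ependyma, and also from neurons. miR-34c-5p stood at 3895, 3119 and 3326 CPM in the PVN and at 428, 1100.3 and 468 CPM in the CEA, a 5.18-fold difference (log2 fold change 2.37 ± 0.36 (SE), edgeR adjusted p = 0.00211). The CEA_NC2 library stood above the other CEA libraries but below every PVN library. miR-34c-3p and miR-34b-3p had log2 fold changes of 2.87 and 2.46, and miR-34b-5p had 1.72 (edgeR adjusted p = 0.0377), with 2.61 without CEA_NC2 and an adjusted p between 0.0515 and 0.117 without CEA_NC3 or any 1 of the PVN libraries. The ciliated-cell list had 6 members in the table, 5 of them tested and 4 called, all higher in the PVN (3 of these held without each library), and none was at 0 in all 6 libraries. Its summed level was 3251 to 4101 CPM in the PVN and 448 to 1156 CPM in the CEA, nearly all of it miR-34c-5p. miR-449a-5p, the member of that list most tied to ciliated cells, stood at 1.52, 1.03 and 1.49 CPM in the PVN and at 2.43, 3.97 and 1.12 CPM in the CEA, with overlapping libraries (edgeR adjusted p = 0.127).

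miR-375-3p, known from pituitary and other endocrine cells, stood at 139.6, 103 and 94.8 CPM in the PVN and at 11.1, 23.4 and 8.02 CPM in the CEA, with no overlap (7.85-fold, log2 fold change 2.97 ± 0.39 (SE), edgeR adjusted p = 0.00113). The list of pituitary and epithelial miRNAs had 9 members in the table, 6 of them tested, 4 called and all 4 higher in the PVN (2 of these held without each library), and no member was at 0 in all 6 libraries. Its sum was 119 to 184 CPM in the PVN and 16.5 to 48.3 CPM in the CEA. The miR-200 members, known from epithelia and olfactory tissue, varied within a nucleus: miR-200b-3p stood at 9.87, 22.3 and 6.25 CPM in the PVN and at 1.16, 5.21 and 1.96 CPM in the CEA (4.5-fold, edgeR adjusted p = 0.0291). Without CEA_NC2 it was 7.95-fold, and without PVN_NC2 it was 2.82-fold with an adjusted p of 0.0726. Without CEA_NC1, CEA_NC3 or PVN_NC1 its adjusted p was 0.133, 0.0928 or 0.0679. The part of other cell types in these differences was not tested.

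miR-216 and miR-217, best known from exocrine pancreas, lie together on chromosome 14, and all their tested arms were higher in the PVN. miR-217-5p stood at 59.4, 45.6 and 54 CPM in the PVN and at 9.62, 11.7 and 9.89 CPM in the CEA (5.05-fold, edgeR adjusted p = 2.7e-05). miR-216b-5p stood at 20.2, 20.7 and 29.6 CPM against 3.38, 3.75 and 3.36 CPM (6.65-fold, edgeR adjusted p = 4.24e-05). For both, the libraries within a nucleus were close together and the nuclei did not overlap.

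**Figure D2:**
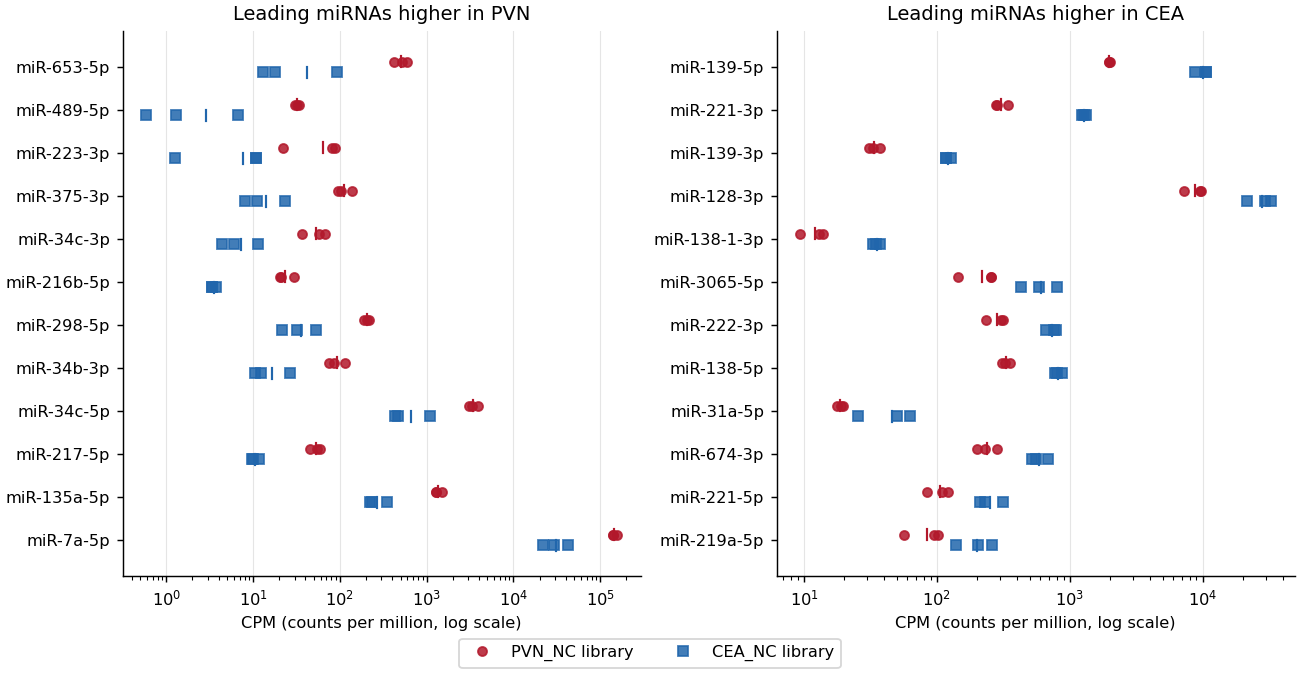
Level (CPM, log x axis) in each of the 3 PVN_NC libraries (red circles) and 3 CEA_NC libraries (blue squares) of the 12 miRNAs with the largest log2 fold change higher in the PVN (left) and higher in the CEA (right), among those called with at least 20 CPM in the higher nucleus and no overlap; the short vertical bars are means. miRNAs with the same or nearly the same counts were drawn once, so miR-3065-5p also stands for miR-338-3p. Levels run from 0.588 CPM for miR-489-5p in the CEA to 156781 CPM for miR-7a-5p in the PVN.

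The imprinted Dlk1-Dio3 region, which holds a very large miRNA cluster and is expressed strongly in neurons, did not move in a single direction. Of 79 members tested, 29 were higher in the PVN, 9 were higher in the CEA and 41 were not called, with a median log2 fold change of 0.27. These were 36.7% and 11.4% of the members, beside 25.0% and 23.9% of all miRNAs tested, and 16 and 6 of the calls were held without each of the 6 libraries. Their summed level was 104893 to 110150 CPM in the PVN and 69816 to 84509 CPM in the CEA. Much of that sum was miR-127-3p, the most abundant member, at 48119, 43862 and 45232 CPM in the PVN and 34131, 26676 and 27499.5 CPM in the CEA (1.54-fold, edgeR adjusted p = 0.00317).

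The called member with the largest difference higher in the PVN was miR-770-3p, at 605, 496 and 656 CPM against 187, 99.5 and 98.8 CPM (4.51-fold, edgeR adjusted p = 0.00111). miR-134-5p, a brain miRNA known to act on dendritic spines, stood at 1756, 1503 and 2329 CPM against 651, 432 and 417 CPM (3.69-fold, edgeR adjusted p = 0.000992). In the opposite direction, miR-494-3p stood at 8.81, 10.5 and 9.23 CPM in the PVN and at 17.5, 25.2 and 21.2 CPM in the CEA (2.25-fold lower in the PVN, edgeR adjusted p = 0.00127). None of these 3 overlapped between the nuclei. A pair of hairpins of the region had arms that were called in opposite directions: miR-323-5p and miR-376b-5p were higher in the PVN with log2 fold changes of 0.80 and 0.66, and miR-323-3p and miR-376b-3p were higher in the CEA with -0.54 for each.

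Some further miRNAs higher in the PVN, those within Clcn5 and the pair miR-330-5p and miR-326-3p, lay outside the lists, and like the other miRNAs outside the naming rule were chosen after their values were seen; the lists too were drawn up with earlier results of these data known. Of the 7 tested miRNAs within the span of Clcn5, a chloride channel gene on the X chromosome, 6 were higher in the PVN and 1 was not called. The most abundant of them, miR-532-5p, stood at 869, 736 and 732 CPM in the PVN and at 417, 353 and 384 CPM in the CEA (2.01-fold, edgeR adjusted p = 0.000567). One of the 7, miR-3560, has the same counts as miR-501-3p on the opposite strand. Another, miR-500-3p, lost its call without PVN_NC1 (edgeR adjusted p = 0.0591). miR-330-5p and miR-326-3p, which share a seed, had log2 fold changes of 1.21 and 0.98. miR-330-5p was the more abundant, at 7089 ± 1607 CPM in the PVN and 3037 ± 382 CPM in the CEA (SD, n = 3 each). In the rodent miR-344 cluster, which was a list, 4 of 6 members tested were higher in the PVN and none in the CEA, with miR-344b-5p at 132, 138 and 137 CPM against 50.2, 34 and 44.1 CPM (3.14-fold, edgeR adjusted p = 0.000205).

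Among the miRNAs higher in the CEA, miR-139-5p had the largest fold change at a mean of at least 20 CPM in the CEA. It stood at 1999.9, 1990.0 and 1964 CPM in the PVN and at 10664, 8816 and 10539.8 CPM in the CEA, and was 5.09-fold lower in the PVN (log2 fold change -2.35 ± 0.12 (SE), edgeR adjusted p = 3.16e-06). The 3 PVN libraries were nearly level, and all lay far below the CEA libraries. Its partner arm miR-139-3p stood at 37.1, 30.9 and 33 CPM in the PVN and at 127, 116 and 117 CPM in the CEA (3.61-fold lower, edgeR adjusted p = 4.08e-05). The nuclei were far apart for both arms.

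The X-linked pair miR-221 and miR-222, known for control of cell growth and of the vessel wall, had all 4 arms higher in the CEA, with a median log2 fold change of -1.33. miR-221-3p stood at 281, 344 and 285 CPM in the PVN and at 1247, 1279.8 and 1315 CPM in the CEA (4.26-fold lower in the PVN, log2 fold change -2.09 ± 0.12 (SE), edgeR adjusted p = 6.16e-06). miR-222-3p, which has the same seed, stood at 304, 313 and 233 CPM against 761, 667 and 789.9 CPM (2.64-fold lower, edgeR adjusted p = 0.000201). Of 51 groups of neighbouring hairpins on the same strand (at most 10000 bases apart in the RefSeq table), 3 had every tested miRNA higher in the CEA: miR-221 with miR-222, miR-132 with miR-212, and miR-181a with miR-181b on chromosome 13. In 5 groups every tested miRNA was higher in the PVN. This no longer held without PVN_NC1 for miR-653 with miR-489 and for miR-34c with miR-34b. There miR-653-5p, miR-489-5p and miR-34b-5p had edgeR adjusted p of 0.0793, 0.0591 and 0.111. Outside any list, miR-674-3p stood at 231, 286 and 202 CPM in the PVN and at 555, 682 and 519 CPM in the CEA (2.46-fold lower, edgeR adjusted p = 0.000423).

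The list of neuronal miRNAs was on the CEA side: of 12 tested, 9 were higher in the CEA (6 of them held without each library), none was higher in the PVN and 3 were not called, with miR-9a-5p and miR-9b-3p, which carry nearly the same reads, both among the 9, with a median log2 fold change of -0.86. miR-128-3p, which is abundant in forebrain neurons, stood at 7225, 9681 and 9556 CPM in the PVN and at 21758, 29568 and 32763 CPM in the CEA (3.2-fold lower in the PVN, log2 fold change -1.68 ± 0.18 (SE), edgeR adjusted p = 0.000302). miR-138-5p, known from dendrites, stood at 310.1, 326 and 356 CPM against 781, 802 and 879.9 CPM (2.5-fold lower, edgeR adjusted p = 0.000108). The nuclei did not overlap for either.

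miR-9a-5p, a miRNA of neural progenitors and neurons, was more nearly level, at 97336, 98775 and 104866 CPM in the PVN and 122760.0, 116229 and 127419 CPM in the CEA (1.23-fold lower, edgeR adjusted p = 0.0292). Its adjusted p was 0.11, 0.0748 and 0.0885 without CEA_NC3, PVN_NC1 and PVN_NC2. miR-9b-3p carried nearly the same counts as miR-9a-5p and is its reverse complement, so that the sum of the neuronal list, 207400 to 223517 CPM in the PVN and 269013 to 293920 CPM in the CEA, counts those reads on both. miR-124-3p, the best known miRNA of neurons, stood at 1441, 1341 and 964 CPM against 1571, 1581 and 1546 CPM and was not called (edgeR adjusted p = 0.0804). Its rarer partner arm miR-124-5p was called, at 64.5, 88.3 and 72 CPM in the PVN and 117, 149.8 and 179 CPM in the CEA (1.99-fold lower, edgeR adjusted p = 0.00253). The families miR-129, miR-137, miR-153 and miR-488, also known from neurons, had 9 members tested and none called in either direction, with a median log2 fold change of 0.05; miR-129-1-3p and miR-129-2-3p among them have identical counts. miR-129-5p, the most abundant of them, stood at 6049.5 ± 52.8 CPM in the PVN and 5907 ± 351 CPM in the CEA (SD, n = 3 each).

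The activity-dependent miR-132 and miR-212, which come from a single transcript, had all 4 arms higher in the CEA with a median log2 fold change of -0.85. miR-132-5p stood at 1753, 1613 and 1713 CPM in the PVN and at 3172, 3589 and 3309 CPM in the CEA, a difference of 2.0-fold (edgeR adjusted p = 0.000157). The libraries of each nucleus lay close together for this arm. miR-218, which lies within the guidance genes Slit2 and Slit3, was higher in the CEA as well, with miR-218a-5p at 15567, 13900.1 and 14805 CPM in the PVN and 23328, 25989 and 27965 CPM in the CEA (1.76-fold lower in the PVN, edgeR adjusted p = 0.000516).

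The oligodendrocyte list had 6 members, all tested, of which 5 (miR-219a-2-3p and its repeat miR-219b among them) were higher in the CEA and none in the PVN, with a median log2 fold change of -1.21. miR-219a-2-3p, which is known from maturing oligodendrocytes, stood at 1595, 2346 and 2070.3 CPM in the PVN and at 3595, 5898 and 4297 CPM in the CEA (2.3-fold lower in the PVN, edgeR adjusted p = 0.00191). miR-338-3p stood at 144, 255 and 256 CPM against 427, 798 and 582 CPM (2.77-fold lower, edgeR adjusted p = 0.0049). It shares these counts with miR-3065-5p from the opposite strand. PVN_NC1 was the lowest library of the PVN and CEA_NC1 the lowest of the CEA for both. The list summed to 3571 to 5349 CPM in the PVN and 8128 to 13600 CPM in the CEA, none of its members was at 0, and miR-219b repeats the counts of miR-219a-2-3p to within 3.03%. How much of the other CEA differences moved with the share of oligodendrocytes was not tested.

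Other families on the CEA side differed by smaller folds. Of 10 miR-30 members tested, 8 were higher in the CEA (80.0%, against 23.9% of all miRNAs tested) and none in the PVN (median log2 fold change -0.55), and of 10 members of the miR-23, miR-27 and miR-24 families 5 were higher in the CEA (50.0%) and none in the PVN (median -0.62). miR-27b-3p stood at 6186, 7049 and 6716 CPM in the PVN and at 11180.1, 15698 and 12048 CPM in the CEA (1.96-fold lower in the PVN, edgeR adjusted p = 0.000567). Those 5 called miRNAs (miR-23b-3p, miR-27b-3p, miR-27b-5p, miR-24-1-5p and miR-24-3p) all have a hairpin within Aopep, miR-24-3p also having one beside miR-23a, while miR-23a-3p, miR-27a-3p, miR-27a-5p and miR-24-2-5p were not called. miR-23b-5p, also within Aopep, was not called either (log2 fold change -0.82, edgeR adjusted p = 0.125), and miR-27b-5p lost its call without CEA_NC2, CEA_NC3, PVN_NC1 or PVN_NC2 (adjusted p up to 0.0994).

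miR-21-5p, known from glia and from inflammation, stood at 4205, 6199.9 and 5059 CPM in the PVN and at 8093, 12452 and 9881 CPM in the CEA (1.98-fold lower, edgeR adjusted p = 0.00281). miR-31a-5p, of the same list, stood at 17.8, 19.6 and 19 CPM in the PVN and at 25.7, 62.7 and 50.2 CPM in the CEA (2.47-fold lower, edgeR adjusted p = 0.0072). The nuclei did not overlap for either, and CEA_NC1 was the lowest CEA library for both. The list of astrocyte and inflammation miRNAs to which they belong had 8 tested members, with 1 higher in the PVN (miR-146b-3p, a call lost without any library but PVN_NC1, adjusted p up to 0.146), 3 higher in the CEA and a median log2 fold change of -0.36. Of 19 let-7 and miR-98 members 7 were higher in the CEA (36.8%, against 23.9% of all miRNAs tested) and 1 in the PVN, with a median of -0.25. Of those calls 4 and 0 were held without each library, and let-7g-3p, the one higher in the PVN, lost its call without any library but CEA_NC1 (adjusted p 0.0589 to 0.0924). Of 15 members of the miR-17 family and its paralogous clusters 7 were higher in the CEA (46.7%), 3 of these held without each library, and 1 in the PVN (median -0.55). The lone member higher in the PVN there, miR-92b-3p, had a log2 fold change of 0.48 (edgeR adjusted p = 0.0362), and its adjusted p was 0.053 to 0.169 without CEA_NC2, CEA_NC3, PVN_NC1 or PVN_NC2.

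The miR-99, miR-100 and miR-125 families had 4 of 11 members higher in the PVN (36.4%, against 25.0% of all miRNAs tested) and none higher in the CEA, with a median log2 fold change of 0.24, and 1 of those 4 calls was held without each library. The hairpins within Htr2c, a serotonin receptor gene, had 1 of 6 higher in the PVN (16.7%), and the miR-183 cluster of sensory cells had 1 of 3. Neither of these calls was held without each library: miR-448-5p lost it without CEA_NC2, CEA_NC3 or PVN_NC3 (adjusted p 0.0541 to 0.0818) and miR-182 without any library but CEA_NC2 (0.0516 to 0.135). In the miR-29 family 1 of 6 was higher in the CEA (16.7%, against 23.9% of all miRNAs tested), and in the miR-26 family 1 of 2. Neither of the 2 tested miRNAs of the Hox clusters was called, and miR-335, from the imprinted Mest locus, had a log2 fold change of 0.98 (edgeR adjusted p = 0.00137).

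miR-741-3p and miR-743b-5p, from a testis-type cluster on the X chromosome, had log2 fold changes of -2.25 and -3.36 at low counts. They were the 2 called of 5 members tested (40.0%, against 23.9% of all miRNAs tested), and neither call held throughout when each library was left out in turn. miR-743b-3p, miR-881-3p and miR-871-3p, the other members, were not called, with log2 fold changes of -1.95, -1.42 and -0.78. miR-743b-5p stood at 0.608, 0.0937 and 0 CPM in the PVN and at 3.8, 1.47 and 1.49 CPM in the CEA, where 3 counts are worth 0.22 to 0.456 CPM. Its log2 fold change was -2.77 without CEA_NC1 and -5.08 without PVN_NC1, and its adjusted p was 0.0582 without PVN_NC2. miR-741-3p stood at 3.65, 0.562 and 0.679 CPM in the PVN and at 11.1, 6.32 and 4.29 CPM in the CEA. It had a log2 fold change of -3.56 without PVN_NC1, and its adjusted p was 0.0579 to 0.0918 without CEA_NC1, CEA_NC2, PVN_NC2 or PVN_NC3.

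**Figure D3:**
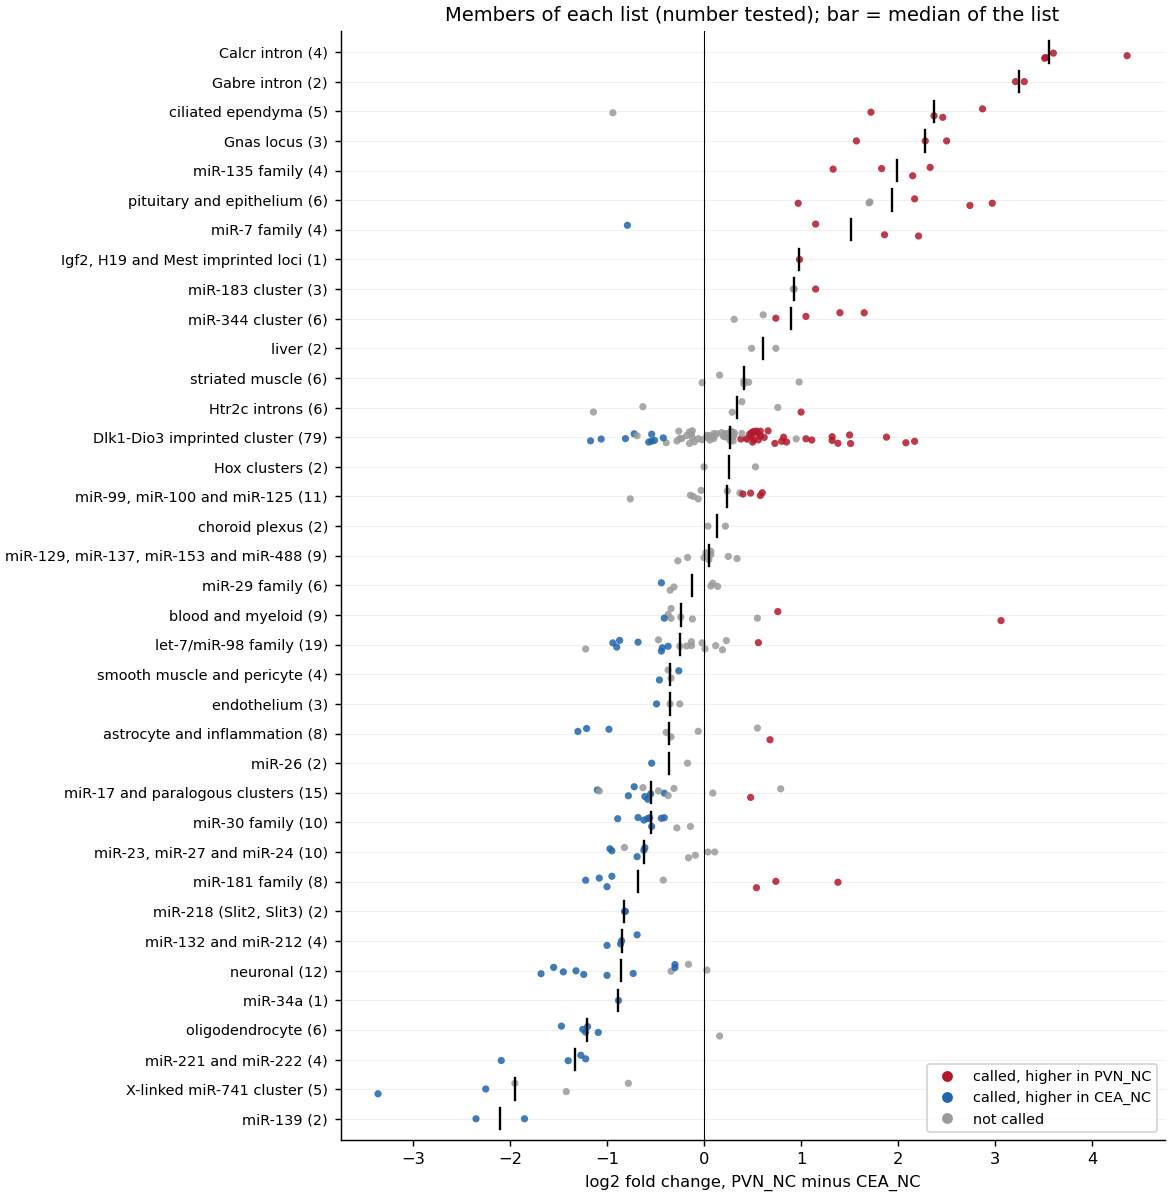
Log2 fold change (PVN_NC minus CEA_NC, x axis) of every tested member of each list of miRNAs (y axis, number tested in brackets), coloured by whether and in which nucleus the member was called higher; the black bar is the median of the list. The Calcr, Gabre, Gnas and miR-135 lists lie wholly on the PVN side, the miR-139, miR-221 and miR-222, and miR-132 and miR-212 lists wholly on the CEA side, and the Dlk1-Dio3, miR-7 and miR-181 lists hold called members on both.

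Members of a family did not always share a direction. Of 48 seed families with at least 2 members tested, 6 had every member higher in the PVN, 6 had every member higher in the CEA and 5 held called members of both directions. A family on the CEA side pairs miR-7a-1-3p with miR-3065-5p, whose counts are those of miR-338-3p. These counts rest in part on calls lost without 1 library. Without PVN_NC1, miR-92b-3p, miR-152-3p and miR-148b-3p, from families of both directions, had edgeR adjusted p of 0.169, 0.0609 and 0.0661. The miR-181 family was the clearest with both directions, with the same seed in 4 mature miRNAs. miR-181a-5p stood at 2844, 3859 and 3890.2 CPM in the PVN and at 5797, 9401 and 7142 CPM in the CEA (2.12-fold lower in the PVN, edgeR adjusted p = 0.0022). miR-181b-5p was 1.93-fold lower in the PVN, at 1054 ± 238 against 2031 ± 423 CPM (SD, n = 3 each).

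miR-181d-5p went the other way, at 979, 856 and 1112 CPM in the PVN and 415, 331 and 378 CPM in the CEA (2.6-fold higher in the PVN, log2 fold change 1.38 ± 0.15 (SE), edgeR adjusted p = 0.000211). It differs from miR-181b-5p by the single substitution C12U. miR-181c-5p, whose hairpin neighbours that of miR-181d on chromosome 19, was 1.67-fold higher in the PVN at 63.1 ± 2.35 against 37.6 ± 1.49 CPM (SD, n = 3 each). miR-181a-5p and miR-181b-5p come from neighbouring hairpins on chromosome 13, and both also have a hairpin on chromosome 3. The seed as a whole summed to 5631 CPM in the PVN and 9890 CPM in the CEA, as means over the libraries.

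The seed shared by the miR-34 and miR-449 families was divided too. While miR-34b-5p and miR-34c-5p were higher in the PVN, miR-34a-5p stood at 178, 219 and 242 CPM in the PVN and at 260.0, 494 and 428 CPM in the CEA (1.85-fold lower in the PVN, log2 fold change -0.89 ± 0.23 (SE), edgeR adjusted p = 0.0146). The lowest CEA library, CEA_NC1, was close to its highest PVN library.

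The arms of a hairpin mostly moved together. Both arms were tested for 159 pairs of arms, with hairpins that give the same pair counted once, and in 117 of them the log2 fold changes had the same sign (r = 0.817 across pairs, which share libraries and in some cases an arm and are not independent). Both arms were called in 55 pairs, in the same direction in 52 and in opposite directions in 3, which were Mir7-1, Mir323 and Mir376b. The 52 hold repeats, since Mir338 and Mir3065, and Mir378 and Mir3557, carry nearly the same reads on opposite strands but were counted apart. For Mir7-1 the 5p arm is also made from the hairpin on chromosome 1, so its counts cannot be assigned to a single hairpin, whereas both arms of Mir323 and Mir376b come from 1 hairpin each.

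**Figure D4:**
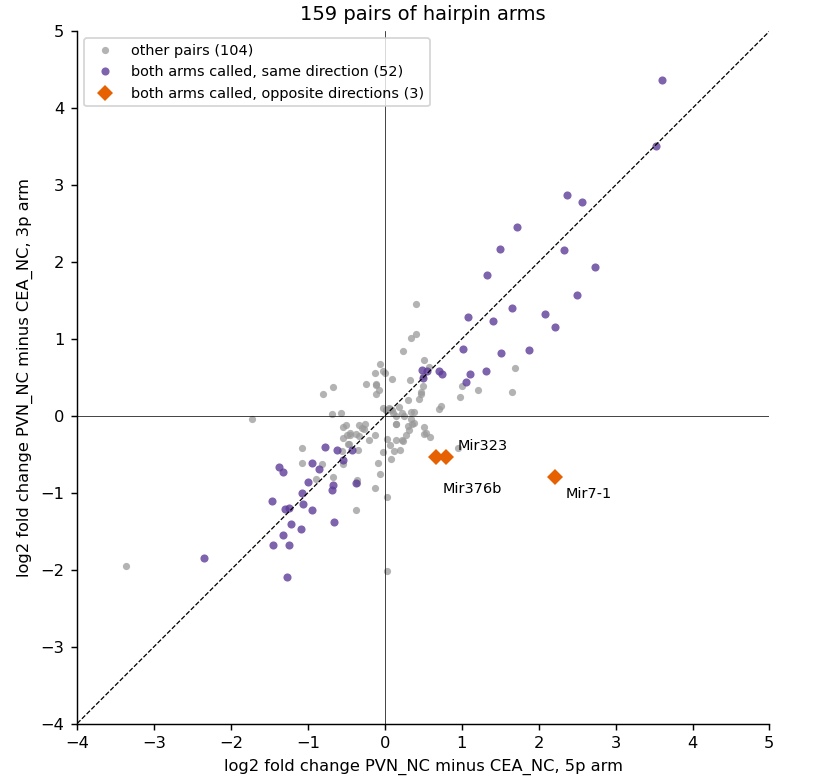
Log2 fold change (PVN_NC minus CEA_NC) of the 3p arm (y axis) against that of the 5p arm (x axis) for 159 pairs of arms, hairpins with the same pair counted once; the dashed line marks equal values. The 52 pairs with both arms called in the same direction lie along the line, and Mir7-1, Mir323 and Mir376b lie below and to the right, with the 5p arm higher in the PVN and the 3p arm higher in the CEA.

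Markers of blood, vessel, muscle, choroid plexus and liver were also read. The 11 blood and myeloid miRNAs (9 tested) summed to 499 to 661 CPM in the PVN and 428 to 563 CPM in the CEA, with 2 members higher in the PVN (22.2%, against 25.0% of all miRNAs tested), 1 higher in the CEA (11.1%, against 23.9%, being miR-150-5p, a call lost without CEA_NC2, CEA_NC3, PVN_NC1 or PVN_NC2, adjusted p up to 0.157) and none at 0 in all 6 libraries. miR-223-3p, a miRNA of myeloid cells, was the exception in size: it stood at 22.3, 89 and 81.2 CPM in the PVN and at 1.27, 10.7 and 10.8 CPM in the CEA (8.36-fold, log2 fold change 3.06 ± 0.89 (SE), edgeR adjusted p = 0.0382). Library 1 was the lowest in each nucleus. Its adjusted p was above the threshold without any library other than PVN_NC1, from 0.0517 without PVN_NC3 to 0.0957 without CEA_NC2, at log2 fold changes of 2.58 to 3.40.

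The 3 endothelial miRNAs summed to 18699 to 21921 CPM in the PVN and 23251 to 26053 CPM in the CEA, and 1 of them (33.3%, against 23.9% of all miRNAs tested), miR-126a-5p, was called, higher in the CEA, a call lost without CEA_NC2, CEA_NC3, PVN_NC1 or PVN_NC2 (adjusted p 0.0646 to 0.0933). The most abundant, miR-126a-3p, stood at 18471, 21011 and 21603 CPM in the PVN and at 22919, 25625 and 23806 CPM in the CEA (log2 fold change -0.25, edgeR adjusted p = 0.061, and 0.0351 when libraries were paired by replicate number). The 4 miRNAs of smooth muscle and pericytes summed to 10524 to 12125 CPM in the PVN and 13398 to 13539 CPM in the CEA, and 2 were higher in the CEA (50.0%). Of these, miR-143-3p lost its call without any 1 of the 6 libraries (adjusted p 0.0608 to 0.114) and miR-145-5p without CEA_NC2, CEA_NC3, PVN_NC1 or PVN_NC3 (0.0674 to 0.142). Of the 7 striated muscle miRNAs 6 were tested and none was called, with sums of 395 to 688 CPM and 317 to 471 CPM. The 4 choroid plexus miRNAs summed to 555 to 631 CPM in the PVN and 381 to 760 CPM in the CEA, and neither of the 2 tested was called. The 3 liver miRNAs summed to at most 3.34 CPM in any library, miR-122-3p was at 0 in all 6, and neither of the 2 tested was called. The part of these cells in the other differences was not tested.

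The same contrast in the 18 libraries from operated rats, which share no library with the NC comparison, gave values for the same miRNAs side by side. There 352 of 536 miRNAs tested (65.7%) were called, 182 higher in the PVN (34.0%) and 170 higher in the CEA (31.7%). Of the 256 miRNAs called in NC rats 254 were tested there, 253 had the same direction and 239 were called in that direction. Over the 517 miRNAs tested in both, the log2 fold changes correlated with r = 0.943 and rho = 0.931 across miRNAs, and the slope of the operated on the NC values was 0.82. The difference between nuclei in NC rats was not called as different from that in operated rats for any of 579 miRNAs by edgeR (0.0%), nor by DESeq2, with 25 (4.32%) and 30 at an unadjusted p under 0.05. Without CEA_NC1 miR-653-5p passed by edgeR, with a difference in log2 fold change of 1.95 and an adjusted p of 0.0318.

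For miR-7a-5p the operated libraries ran from 124575 to 155592 CPM in the PVN (median 137296) and from 25001 to 49399 CPM in the CEA (median 33968), so the nuclei did not overlap over 9 libraries each (log2 fold change 1.90 ± 0.11 (SE), edgeR adjusted p = 1.75e-11). miR-653-5p ran from 328 to 599 CPM (median 488) and from 21.3 to 81.3 CPM (median 59.3), again with no overlap. CEA_NC1, at 93.1 CPM, lay just above that CEA range, and CEA_NC2 and CEA_NC3, at 13 and 18.1 CPM, lay below it. miR-139-5p ran from 1866 to 3293 CPM in the PVN (median 2239) and from 6540.1 to 19983 CPM in the CEA (median 10054). miR-221-3p ran from 292 to 415 CPM (median 375) and from 973 to 1422 CPM (median 1248), with no overlap for either. miR-7a-1-3p kept its opposite direction, at 28.7 to 42.4 CPM in the PVN (median 30.3) and 40.1 to 57.4 CPM in the CEA (median 44.8), with ranges that overlapped (edgeR adjusted p = 6.54e-07).

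The one miRNA called in NC rats whose sign differed in operated rats was miR-223-3p. It ran from 1.02 to 11.9 CPM in the operated PVN (median 1.58) and from 0.886 to 19 CPM in the operated CEA (median 1.38), with a log2 fold change of -0.02 (edgeR adjusted p = 0.971). The PVN_NC libraries, at 22.3, 89 and 81.2 CPM, all lay above every operated library of either nucleus. The difference between its contrasts, 3.02 on the log2 scale, had an unadjusted p of 0.0191 in edgeR and did not pass the adjustment over all miRNAs.

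**Figure D5:**
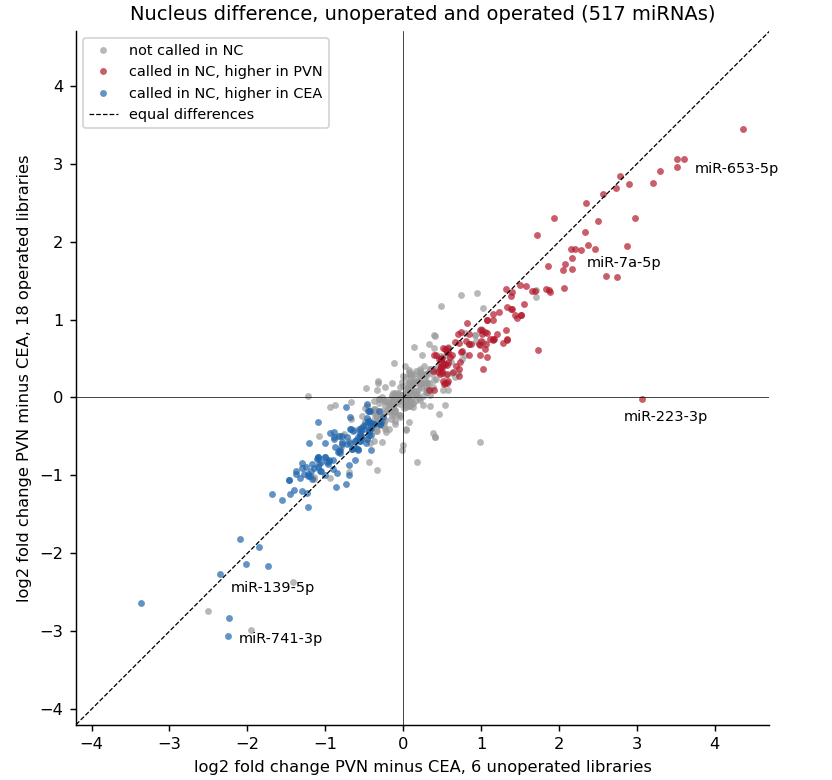
Log2 fold change PVN minus CEA in the 18 operated libraries (y axis) against that in the 6 unoperated libraries (x axis) for the 517 miRNAs tested in both, coloured by the call in NC rats; the dashed line marks equal differences. Most points lie near the dashed line, and miR-223-3p, at 3.06 in NC and -0.02 in operated rats, lies far below it. The fitted slope of the operated on the NC values, which is not drawn, is 0.82.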

How the data were processed

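Small RNA libraries were made by the study with an NEBNext kit from PVN and CEA tissue of rats. The authors deposited whole-number read counts per mature miRNA, known or predicted, 1 column for each of the 24 libraries, after removing reads with adapters or of low quality. The submitters' processing notes name HISAT2 and featureCounts and a human build, while the study's methods name a rat build. How reads matching several miRNAs were counted is not given in the sources used here. The 24 further columns of scaled values were not used.

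Groups followed the labels. PVN_NC was compared with CEA_NC in edgeR 4.0.16 (R 4.3.3) with its filterByExpr filter, TMM factors (0.977 to 1.02) and the robust quasi-likelihood test, and p-values were adjusted over all miRNAs tested (threshold 0.05). The 18 operated libraries were fitted apart, with treatment as a term, and the difference between the contrasts was fitted over all 24. DESeq2 1.42.0, other scalings and filters, a replicate block and omission of each library were alternatives. Deviations of same-numbered libraries from their group means correlated with r = 0.335, 0.281 and 0.167 over 524 miRNAs, against -0.287 to 0.0855 for unlike numbers, so the numbers were taken as pairs in the block. Deviations from a group mean cancel out within the group, so the values for unlike numbers are not a separate reference. The pairing is read from these data only, since the labels do not state it. The fitting code was tested on simulated data. Intervals are not given for single counts, and the limit of 3 counts covers counting error only.

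Named miRNAs were, by rule, the 12 with the largest fold change in each direction among those called with a mean of at least 20 CPM in the higher nucleus and no overlap, the 10 most abundant, and the most abundant and furthest-moved members of each list with their partner arms, and any called in the difference between contrasts (there were 0). Among the 12 in each direction, miRNAs with the same or nearly the same counts were taken once. Others named were chosen after their values were seen. The libraries, lists and members were chosen with earlier results of these data known. Of 703 known miRNAs 637 matched RefSeq names (GRCr8), and 473 of those tested did. For 30 hairpins listed there only by their mature miRNAs, the span of those was used as the position. The counts of near-identical pairs were compared in the 6 NC libraries.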

Additional observations from a re-analysis of the deposited data

How the results depend on the processing

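The number of miRNAs called between PVN_NC and CEA_NC was 256, and 246 to 288 under other tools, scalings, filters, fits over all 24 libraries and the replicate block (288 with the block, of which 253 were among the 256). Without 1 library it was 191 (CEA_NC3) to 256 (CEA_NC1). In operated libraries it was 352, with 346 to 390 under the alternatives and 339 to 372 without 1 library. Of 1325 alternative values for 78 named miRNAs, 1215 kept direction and side of the threshold, 102 lost the call, 8 gained it and 0 turned. Not all losses came from omitted libraries. A filter of at least 1 count lost 7 and a filter of at least 10 counts lost 5. Upper-quartile scaling lost 6 and DESeq2 lost 5. With the replicate block, which pairs libraries by number, the only one of these 78 whose call changed was miR-126a-3p (edgeR adjusted p = 0.0351). For the difference between NC and operated contrasts 0 miRNAs were called and 25 had an unadjusted p under 0.05. Without 1 library the number called was 0 to 1, the 1 being miR-653-5p without CEA_NC1 (difference in log2 fold change 1.95, edgeR adjusted p = 0.0318), and the cause was not tested. Depth limits miRNAs near 3 counts, 0.22 to 0.456 CPM.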

Other observations

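Of 8 predicted miRNAs tested, named only by number in the deposited table, 1 was called higher in the PVN and 2 higher in the CEA. The one higher in the PVN had a log2 fold change of 2.24 (edgeR adjusted p = 0.0362) and 3.81 without CEA_NC2, and it lost the call without CEA_NC1, PVN_NC1 or PVN_NC2 (adjusted p = 0.0695, 0.0885 and 0.111). All 395 predicted miRNAs together held 0.00747% to 0.0127% of the counts of a library.

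Some miRNAs varied more within a nucleus than between the nuclei. miR-10b-5p, from the Hox clusters, stood at 343, 43.8 and 196 CPM in the PVN and at 26.9, 201 and 177 CPM in the CEA (edgeR adjusted p = 0.686). miR-1298, from within Htr2c, stood at 2812, 3162 and 2726 CPM in the PVN and at 3589, 7386 and 2495 CPM in the CEA, with CEA_NC2 far above the other libraries (edgeR adjusted p = 0.193). miR-206-3p, known from skeletal muscle, stood at 25.7, 91 and 32.9 CPM in the PVN and at 16.1, 32 and 27.7 CPM in the CEA, with PVN_NC2 the highest (edgeR adjusted p = 0.148).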
